A study of Mus musculus with 2 samples.

Results

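Insulin receptor signalling was described here through 10 genes, found by their names on the array: the receptor Insr, its substrates Irs1 and Irs2, the phosphatidylinositol 3-kinase (PI3K) subunits Pik3r1 and Pik3ca, the kinases Akt1 and Akt2, the transcription factors Foxo1 and Foxo3, and the pseudokinase Trib1. They are 10 of 30165 genes named on the array and 10 of the 15385 that were measured on both arrays. The genes were covered by 20 probes of 60 bases, each printed as 1 spot per array, and 19 of these were well above background on both arrays.

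The tissue was liver from male C57BL/6J mice, with 1 array for the Drp1 knockout and 1 array for the wild type. Drp1, encoded by Dnm1l, is the dynamin-related GTPase that divides mitochondria, and the series title places its disruption in the liver. Both groups were fed a high-fat diet made with lard, holding 24% fat and 45% of energy as fat, for 24 weeks from the age of 4 weeks. Per the design text, mice were studied after 17 hours of fasting, with refed samples taken 4 hours after food was returned, and the labels do not say which applied to these livers. The driver of the deletion and any pooling of animals are not given in the sources used here. With 1 array per group, no difference below has a replicate check, none was tested, and feeding state, animal and genotype cannot be told apart.

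Insulin binds its receptor, a tyrosine kinase, which phosphorylates the substrate proteins Irs1 and Irs2. These recruit PI3K, whose lipid product brings Akt to the membrane, and Akt phosphorylates the FoxO factors so that they leave the nucleus. In liver this arm is known for turning down gluconeogenic genes and Igfbp1, while a parallel arm through Srebf1 turns on fatty acid synthesis. Much of the pathway works by phosphorylation, which an RNA array does not read.

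The probes behind the results that follow are given as designed, in the sense direction of the transcript. Pik3r1 and Foxo1 are shown because they were the members at least 1.5-fold apart between the arrays, and Pik3ca because it stood farthest in the other direction. Irs2 is shown as a substrate that 1 probe alone represents. All lie in mm9, at chr13:102454406-102454465 on the minus strand for Pik3r1, chr3:52150183-52150242 on the plus strand for Foxo1, chr3:32360630-32360689 on the plus strand for Pik3ca and chr8:11004490-11004549 on the minus strand for Irs2. For Pik3r1 only the first 30 bases of the probe are printed.
Pik3r1: atggtgcttgttaacgctttctgaagcttt
Foxo1: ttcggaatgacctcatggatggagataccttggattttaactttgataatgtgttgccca
Pik3ca: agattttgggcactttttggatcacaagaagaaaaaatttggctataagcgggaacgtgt
Irs2: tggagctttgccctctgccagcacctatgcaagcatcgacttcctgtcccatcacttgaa

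Across the members, differences in the knockout were small. By gene, 8 of 10 lay below the median of all measured genes, which has as many genes below it as above. Some lay only slightly below, so this count is not read as a property of the pathway. Differences are log2 values, knockout minus wild type, after each array was scaled to the 75th percentile of its own signals, and levels are multiples of that percentile. Genes with several measured probes are given by the mean of their probes, and a difference of 1.5-fold or more counts as higher or lower. Of the 10 members, 0 were higher, 2 were lower (Pik3r1 and Foxo1) and 8 lay within 1.5-fold. Over all measured genes, 8.42% counted as higher and 13.4% as lower, so 2 of 10 is near the background and is not read as a property of the pathway. Of all these calls 38.6% were higher, a share that was 53.9% with median centring, 50.8% with loess, 21.9% without a filter on dim probes and 97.7% with spike-in scaling. The members had a median of -0.25 and ran from -0.88 to 0.48, against a median of -0.11 over all measured genes. By probe, 13 of 19 were negative, 4 were at least 1.5-fold lower and 0 higher, where all probes gave 13.5% lower and 8.6% higher. The median of all measured probes was itself negative (-0.11), so the tally of signs is not read as a property of the pathway.

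**Figure D1:**
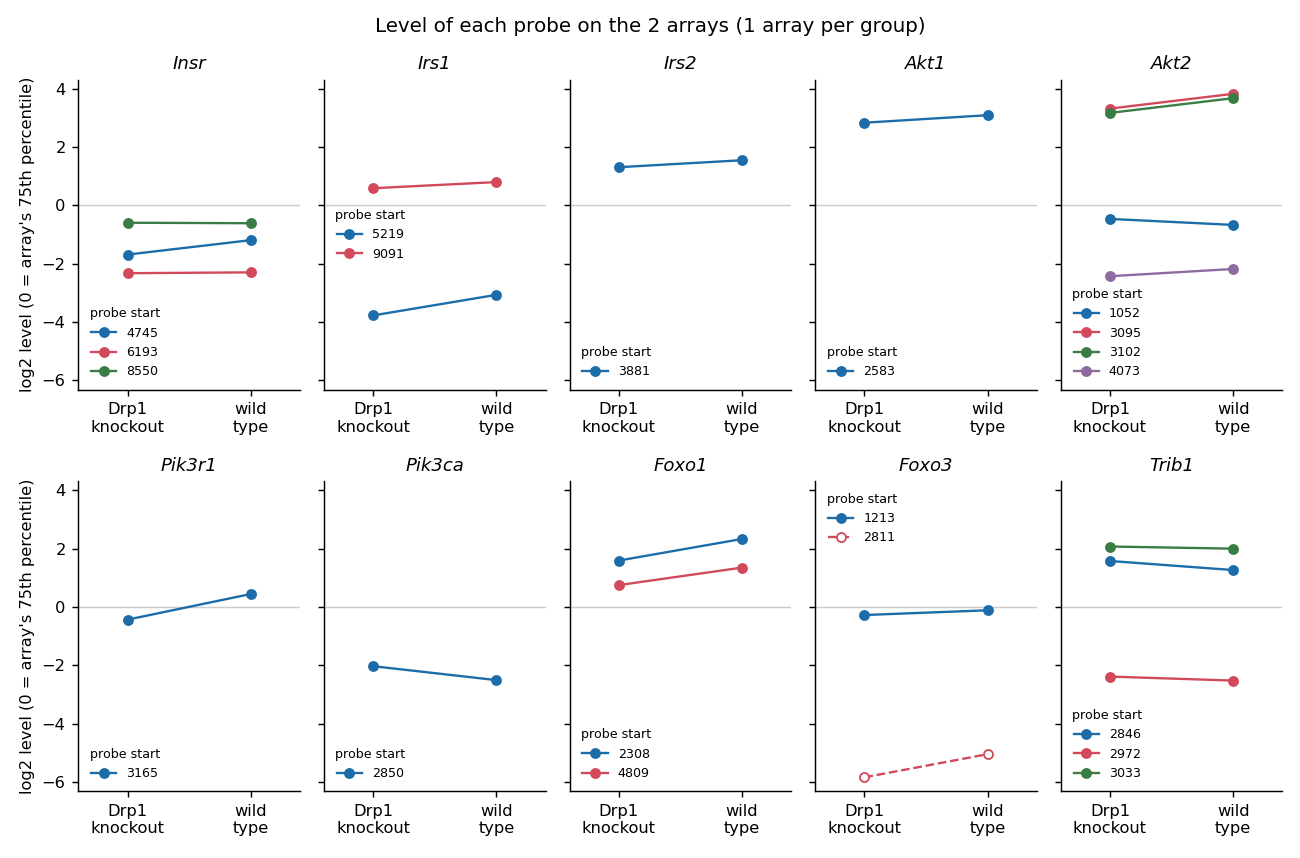
Level of every member probe on the Drp1 knockout array (left in each panel) and the wild type array (right), as log2 of the signal over the array's 75th percentile. Each line is 1 probe, labelled by where it starts in its transcript, and open symbols mark the Foxo3 probe that was not well above background on either array. The Pik3r1 line and both Foxo1 lines are lower at the knockout end, and those of Pik3ca and Trib1 are higher there.

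Error was judged in 3 ways, none of which covers variation between mice. The scanner program's own error model gave a member probe's difference an error of 0.20 to 0.32 (median 0.21). Spots of the same probe elsewhere on the arrays gave the difference an SD of 0.24 at log2 levels under -2, 0.11 from -2 to 0 and 0.08 above 0. Different probes of 1 gene varied more, with a pooled SD of 0.36 over 3357 genes with several measured probes. The zero of the scale also depends on the choice of scaling: scaled to spike-in control spots, every difference moved up by 0.78, which put Foxo1 at 0.11 and Pik3r1 at -0.10. Higher and lower are therefore relative to the array's 75th percentile throughout.

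The receptor showed little difference. Insr, the insulin receptor tyrosine kinase on chromosome 8, had 3 probes. The probe nearest the 3' end, at base 8550 of the transcript, read 0.661 in the knockout and 0.653 in the wild type, a difference of 0.02. The probe at base 6193 read 0.199 in the knockout and 0.203 in the wild type, a difference of -0.03. The probe at base 4745 stood apart at 0.310 in the knockout and 0.437 in the wild type, a difference of -0.49. Both 3' probes thus differed by less than their error, and the gene's mean of -0.17 came mainly from 1 probe. With the brightest probe alone the gene's sign changed, to 0.02.

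The substrates were both lower by less than 1.5-fold. Irs2, the main fasting-responsive substrate in mouse liver, read 2.47 in the knockout and 2.92 in the wild type, a difference of -0.24 that is close to its error of 0.20. Irs1 had a probe at base 9091, at 1.501 in the knockout and 1.74 in the wild type (-0.21), and a dimmer one at base 5219, at 0.0731 in the knockout and 0.119 in the wild type (-0.71). The dimmer Irs1 probe carried the greatest error of the 19 measured (0.32), and probes at that level had a median of -0.21 across the array. The mean for Irs1 was -0.46, and it was -0.21 when dim probes were filtered more strictly.

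The PI3K subunits differed in opposite directions. Pik3r1 encodes the regulatory subunit p85 alpha, which docks on the phosphorylated substrates and holds the catalytic subunit, along with shorter forms. It read 0.741 in the knockout and 1.36 in the wild type, 1.84-fold lower (-0.88), with an error of 0.21. Probes at its level had a median of -0.01, and it was lower by at least 1.5-fold under all 8 alternatives other than spike-in scaling (-0.88 to -0.75). With 1 probe, the filter settings and the brightest-probe setting could not change its value, so these are no check on it. Its probe starts at base 3165 of the transcript, and the labels do not separate the forms. Pik3ca, the catalytic subunit p110 alpha, read 0.245 in the knockout and 0.176 in the wild type, 1.39-fold higher (0.48, error 0.25). It was 0.08 with normexp background correction, and the stricter filter on dim probes removed the gene.

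**Figure D2:**
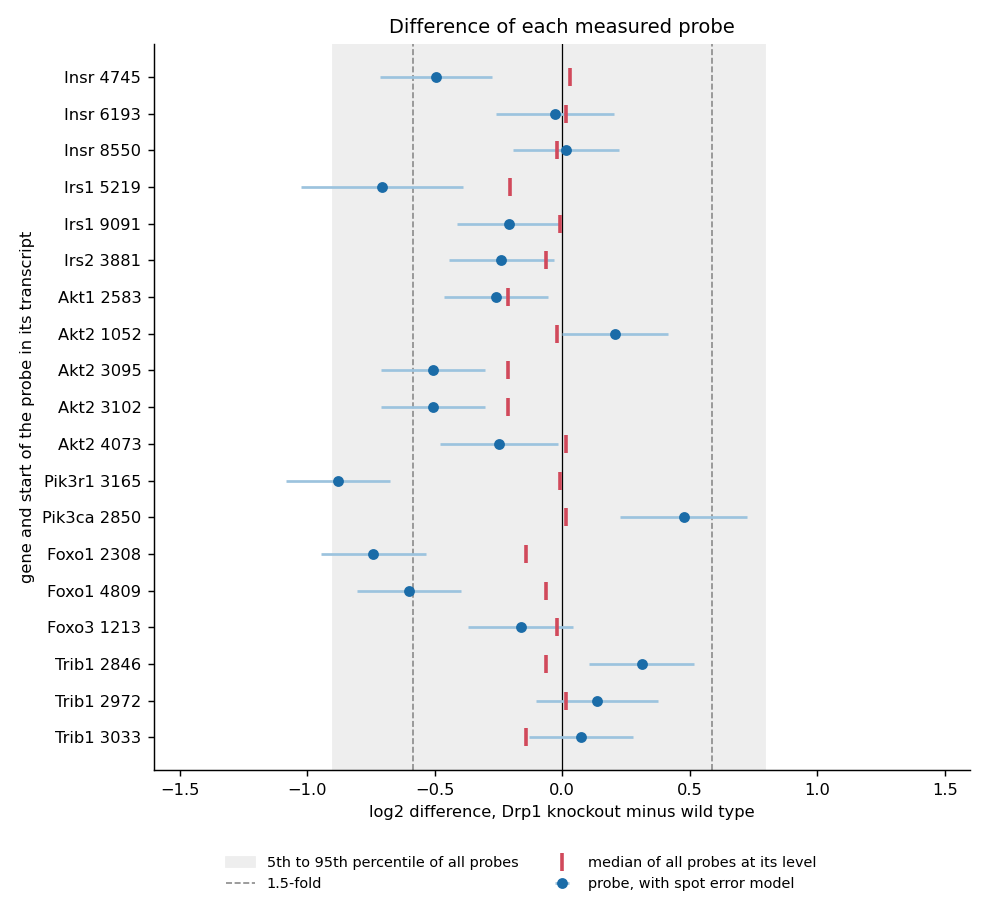
Log2 difference, Drp1 knockout minus wild type, of the 19 measured member probes, with bars for the scanner program's error model and red ticks for the median of all probes of like level. The grey band spans the 5th to 95th percentile of all probes (-0.90 to 0.80) and dashed lines mark 1.5-fold. The Pik3r1 probe, at -0.88, is the lowest and lies just inside the band, and spike-in scaling would move every point up by 0.78.

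The Akt kinases differed by less than 1.5-fold on every probe, and the probes of Akt2 did not share a sign. Akt1, the form found in most tissues, read 7.12 in the knockout and 8.51 in the wild type, a difference of -0.26, where probes at its level had a median of -0.21. Akt2, the main form for insulin action in liver, had 4 probes on chromosome 7 that ran from -0.51 to 0.21, with a mean of -0.26. The probe at base 1052 read 0.724 in the knockout and 0.627 in the wild type (0.21). The pair at bases 3095 and 3102 read 9.95 and 8.98 in the knockout, against 14.1 and 12.8 in the wild type (-0.51 each). This pair shares 53 of 60 bases, so its probes do not check each other. With the pair counted once, an alternative added after seeing the data, the mean of Akt2 was -0.18, the median of the members -0.21 and the tally of negative probes 12 of 18. The dimmest, at base 4073, read 0.185 in the knockout and 0.220 in the wild type (-0.25). The positive value at base 1052 is no larger than its error of 0.21, and the value at base 4073 is close to its error of 0.23. The probe at base 1052 is shown in full (mm9 chr7:28418226-28418285, plus strand), and of the pair the first 30 bases (from chr7:28424405-28424464 and chr7:28424412-28424471, plus strand), with capitals for the stretch that both printed parts share.
Akt2, base 1052: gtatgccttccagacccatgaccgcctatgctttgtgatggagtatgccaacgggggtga
Akt2, base 3095: ctgctggCCTTTCCTTACTCCTCGTATTTG
Akt2, base 3102: CCTTTCCTTACTCCTCGTATTTGtacggta

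Foxo1 was lower on both of its probes, relative to the 75th percentile. Foxo1 is the FoxO factor that drives gluconeogenic genes in liver when Akt activity is low. The probe at base 2308 on chromosome 3, printed above, read 3.01 in the knockout and 5.03 in the wild type (-0.74, error 0.20). The second, at base 4809, read 1.68 in the knockout and 2.55 in the wild type (-0.60). The probes do not overlap, and their mean of -0.67 is 1.59-fold lower. Probes at these levels had medians of -0.14 and -0.06. Foxo1 kept its direction under all 8 alternatives without spike-ins (-0.74 to -0.56) but passed 1.5-fold in only 4 of them. The filter settings left its value unchanged. It fell short with quantile normalization (-0.575), median centring (-0.562), loess (-0.576) and the deposited table (-0.572). Foxo1 thus lies at the edge of the threshold, and its call depends on the scaling.

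Foxo3, a related factor on chromosome 10, rests on a weaker basis. Its probe for the RefSeq transcript was not well above background on either array, at a signal of 12.6 in the knockout and 14.0 in the wild type. The other probe, designed on a cDNA clone and not on the RefSeq transcript, read 0.826 in the knockout and 0.925 in the wild type, a difference of -0.16 with an error of 0.21.

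Trib1 was the other member with a positive difference. It is a pseudokinase that brings the ubiquitin ligase Cop1 to C/EBP alpha, and variation near it is linked to blood lipids in people. Its 3 probes on chromosome 15 shared a sign, at 0.31, 0.14 and 0.07. The probe at base 2846 read 2.98 in the knockout and 2.41 in the wild type, and the one at base 3033 read 4.21 in the knockout and 4.00 in the wild type. The dimmest probe, at base 2972 of an Ensembl transcript, read 0.191 in the knockout and 0.174 in the wild type. The mean of 0.17 is 1.13-fold and no larger than the error of a single probe. The probe at base 2846 exceeded its own error of 0.20, while those at bases 2972 and 3033 did not (errors of 0.24 and 0.20).

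**Figure D3:**
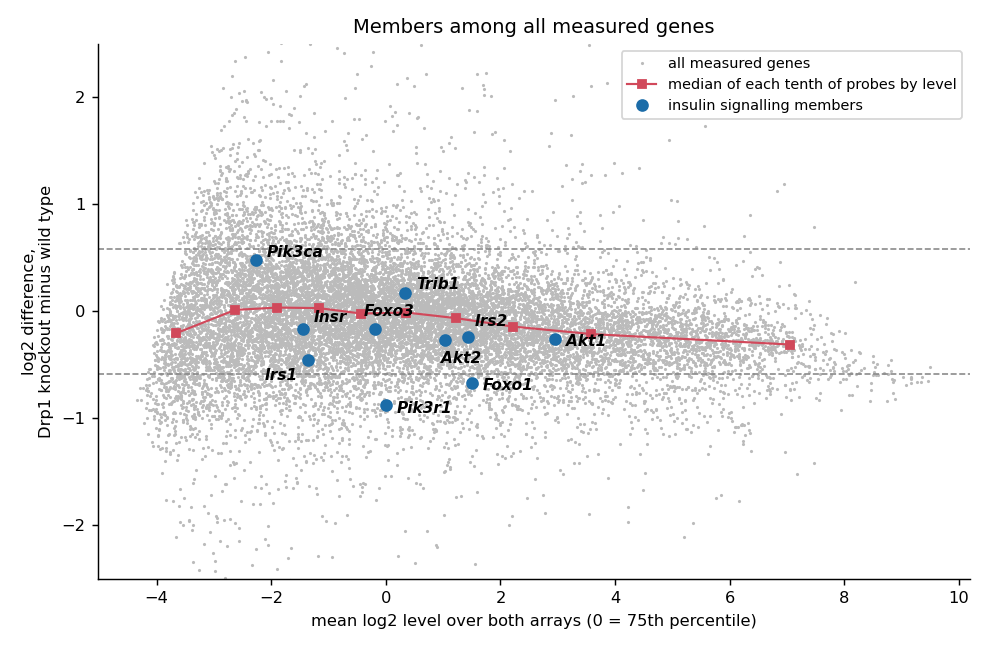
Log2 difference (Drp1 knockout minus wild type) against mean log2 level for all measured genes (grey) and the 10 members (blue), with the medians of probes grouped into 10 classes by level in red. Dashed lines mark 1.5-fold, and 72 genes beyond 2.5 are outside the plot. Among the members only Pik3r1 and Foxo1 lie past a dashed line, and the red line falls to -0.31 among the brightest probes. With spike-in scaling Pik3r1 and Foxo1 would lie within 1.5-fold, and 4 other members would count as higher.

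**Figure D4:**
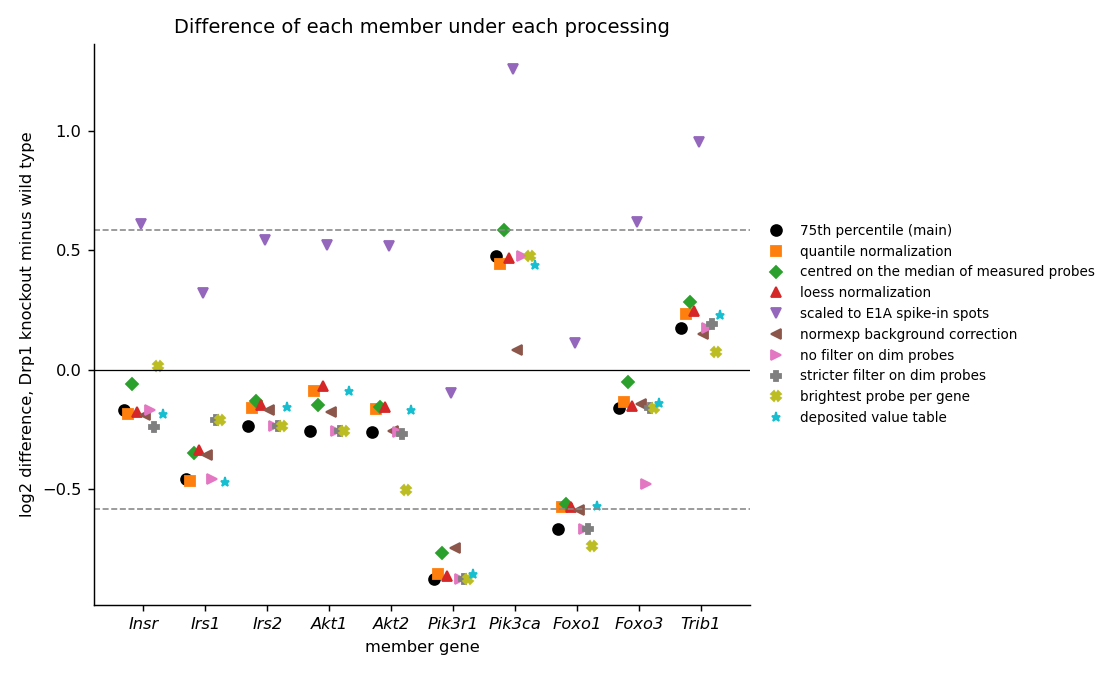
Log2 difference (Drp1 knockout minus wild type) of each member under the main scaling (black) and 9 alternatives, with dashed lines at 1.5-fold. Pik3r1 stays below the lower line in all but the spike-in scaling (purple triangles), and Foxo1 straddles it.

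The start regions of the members offered a view of shared sequence. RefSeq windows of 250 bases before to 50 after a start (GRCm38.p6) were at hand for 8 members, 13 windows in all, and Insr and Trib1 had none. They were searched on both strands for 5 motifs: the FoxO core GTAAACA, the insulin response core CAAAACA, the E-box CACGTG, the amino acid response core TGATGNAA and the sterol response core TCACCCCA. The windows of Pik3r1 and Foxo1, the members past 1.5-fold, held none of these letters. The windows of Irs1 and Irs2 each held the E-box and the insulin response core, read here as its complement TGTTTTG, which are found in 7.15% and 6.28% of all 32851 windows. The FoxO core was in 1 window of Akt1 (3.65% of all), the amino acid response core in 1 of Akt2 (3.97% of all) and the sterol response core in 0 member windows (1.56% of all). A match is a description of letters and not a site. The Irs1 and Irs2 windows are printed because this arrangement was common to both substrates, whose differences here were -0.46 and -0.24. Capitals mark the motifs, which begin at -115, -111 and -32 from the start in Irs1, where the first 2 overlap, and at -44 and -37 in Irs2. The windows are chr1:82291390-82291689 and chr8:11008880-11009179, both on the minus strand.
Irs1: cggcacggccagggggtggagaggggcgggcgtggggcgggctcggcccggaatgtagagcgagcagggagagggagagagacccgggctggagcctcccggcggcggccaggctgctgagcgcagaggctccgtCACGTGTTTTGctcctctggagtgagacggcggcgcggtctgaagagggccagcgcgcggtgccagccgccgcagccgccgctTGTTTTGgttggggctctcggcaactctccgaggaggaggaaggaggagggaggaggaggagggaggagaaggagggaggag
Irs2: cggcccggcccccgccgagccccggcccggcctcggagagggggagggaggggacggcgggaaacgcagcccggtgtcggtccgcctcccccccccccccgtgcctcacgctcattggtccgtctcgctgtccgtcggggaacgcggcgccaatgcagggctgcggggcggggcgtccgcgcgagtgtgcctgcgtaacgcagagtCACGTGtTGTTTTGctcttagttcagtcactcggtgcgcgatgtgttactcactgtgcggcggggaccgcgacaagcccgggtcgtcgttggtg

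Further genes of the pathway were taken from 7 lists holding 119 genes, of which 102 were measured on both arrays. Together 9 counted as higher (8.82%) and 17 as lower (16.7%), near the 8.42% and 13.4% of all measured genes. Their median was -0.03. The lists differed among themselves, as the plot of pathway lists shows, and up to 5 genes of each are named, by size of difference.

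Other receptors and adaptors had a median of -0.20, with 1 of 10 measured genes higher and 1 lower. Igf1r, the receptor for insulin-like growth factor 1, was 1.55-fold higher in the knockout at a dim 0.184 against 0.119 in the wild type. It fell short of 1.5-fold with normexp (0.14 in log2), quantile normalization (0.57) and the deposited table (0.57), and the stricter filter removed it. Irs4, a substrate with little known role in adult liver, was 2.15-fold lower, at 0.143 in the knockout and 0.308 in the wild type. The adaptors Sh2b1 (-0.37) and Nck1 (0.32) lay within 1.5-fold. Of 7 stellate cell markers, 5 were higher in the knockout and 1 lower, with a summed level of 5.47 in the knockout and 2.47 in the wild type. Their part in the value of Igf1r was not tested.

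The other PI3K subunits and lipid phosphatases had a median of 0.18, with 1 of 13 measured higher and 2 lower. Pik3r3, the regulatory subunit p55 gamma, was 4.36-fold lower, at 0.111 in the knockout and 0.482 in the wild type. Inpp4a, which acts on a later phosphoinositide, was 1.57-fold higher at a dim 0.164 in the knockout and 0.104 in the wild type. It lay at 0.11 in log2 with normexp and 0.18 with no filter, and the stricter filter removed it. Inpp5d (0.50, and 0.60 with median centring) and Pik3c3 (0.46) lay within the threshold. Pik3r1 and Pik3r3 were thus both lower, while Pik3r2, another regulatory subunit named after its value was seen, lay at -0.31.

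Of the Akt kinases and effectors, 18 of 21 measured lay within 1.5-fold (median -0.06). Sgk1, a kinase related to Akt that stress and glucocorticoids raise, was 2.82-fold higher, at 3.37 in the knockout and 1.19 in the wild type. The forkhead factor Foxk1 was 1.86-fold lower and Foxk2 lay at -0.57. Tbc1d4, a regulator of glucose transporter traffic in muscle and fat, was 1.67-fold lower at a dim 0.115 in the knockout and 0.192 in the wild type, with log2 values of -0.56 with normexp and 0.04 with spike-in scaling. Pde3b, the phosphodiesterase through which insulin lowers cyclic AMP, lay at -0.50.

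Brakes on insulin signalling had a median of 0.27, with 2 of 21 measured higher and 2 lower. Trib3, a relative of Trib1 that binds Akt and is a target of Atf4 and Chop, was 16.2-fold higher, at 46.1 in the knockout and 2.84 in the wild type. Grb10, an adaptor that inhibits the receptor, was 5.33-fold lower, at 0.0449 in the knockout and 0.239 in the wild type. Socs3, an inhibitor induced by cytokines, was 2.00-fold lower, at 1.62 in the knockout and 3.25 in the wild type. Neutrophil markers were lower in 4 of 4 measured, with a summed level of 2.06 in the knockout and 4.47 in the wild type, and their part in the value of Socs3 was not tested. Prkcd was 1.53-fold higher, but 0.42 in log2 with normexp and 0.45 on its brightest probe, both under 1.5-fold. Trib2 lay at 0.57, and at 0.02 with normexp and -0.13 with no filter. Grb14, an inhibitor related to Grb10 that is abundant in liver, lay at 0.21 and was named after its value was seen. Beside Grb10, Pik3r3, Irs4 and Tbc1d4, which were all dim in the knockout, all 7 skeletal muscle markers passed the background threshold only in the wild type, with a summed level of 0.112 in the knockout and 8.26 in the wild type. The part of muscle RNA in these values was not tested.

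Among other FoxO factors and FoxO targets, the median was 0.10, with 3 of 19 measured higher and 2 lower. Igfbp1, which binds insulin-like growth factors and which insulin represses through Foxo1, was 12.8-fold higher, at 135 in the knockout and 10.5 in the wild type. Gadd45a was 6.24-fold and the pyruvate dehydrogenase kinase Pdk4 2.37-fold higher. Bcl6 was 2.06-fold and Cited2 1.73-fold lower. The gluconeogenic targets Pck1 and G6pc, named after their values were seen, lay at 0.46 and 0.23, within 1.5-fold. Igfbp1 and Gadd45a are also known targets of the Atf4 stress response, to which Trib3 belongs, and the arrays do not separate the routes.

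The lipogenic genes that insulin raises stood farthest from the other lists. Of 13 measured, 7 were lower in the knockout (53.8%) and 0 higher, against 13.4% lower and 8.42% higher over all genes. The list was chosen with earlier results of these data known, so this share is a description and not a test of the pathway. The median of the list was -0.70. Thrsp was 3.99-fold lower, Srebf1, the factor that carries the insulin signal to lipogenesis, 3.14-fold, and Fasn, fatty acid synthase, 1.96-fold. Srebf1 was dim, at 0.125 in the knockout and 0.393 in the wild type, and so was Fasn, at 0.0949 in the knockout and 0.186 in the wild type. Normexp put Srebf1 at -1.21 and Fasn at -0.76 in log2, and the stricter filter removed both. Insig1 was 1.82-fold lower. The count of lower genes was 5 to 8 and that of higher genes 0 in the alternatives without spike-ins, against 3 lower and 2 higher with them. The list's median was between -0.71 and -0.50 in the alternatives without spike-ins, and 0.08 with them. Of 6 adipocyte markers, 2 were measured and 4 were not well above background on either array. Cidea read 0.488 in the knockout and 4.23 in the wild type (-3.12). Fabp4 read 2.45 in the knockout and 2.43 in the wild type (0.01). The summed level of the list, 3.00 in the knockout and 6.78 in the wild type, thus differed through Cidea and not through the list as a whole. The part of fat cells in the lipogenic values was not tested.

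Around Trib1, the list of partners and relatives had a median of 0.57, with 2 of 7 higher and 1 lower. That median was between -0.05 and 0.68 in the alternatives without spike-ins, and 0.02 with normexp. Besides Trib3, Det1, a partner of Cop1, was 1.59-fold higher on probes of 0.37 and 0.97, and fell short of 1.5-fold with normexp (0.50) and on its brightest probe (0.37). Map2k1, a kinase that tribbles proteins bind, lay at 0.58, just under the threshold, and passed it with quantile (0.64), centring (0.69), loess (0.65) and the deposited table (0.64). Cebpa, the factor that Trib1 marks for degradation, was 1.51-fold lower, at 9.96 in the knockout and 15.1 in the wild type. It fell short of 1.5-fold with quantile (-0.38), loess (-0.38), centring (-0.49), normexp (-0.53) and the deposited table (-0.38), and lay at 0.18 with spike-in scaling.

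**Figure D5:**
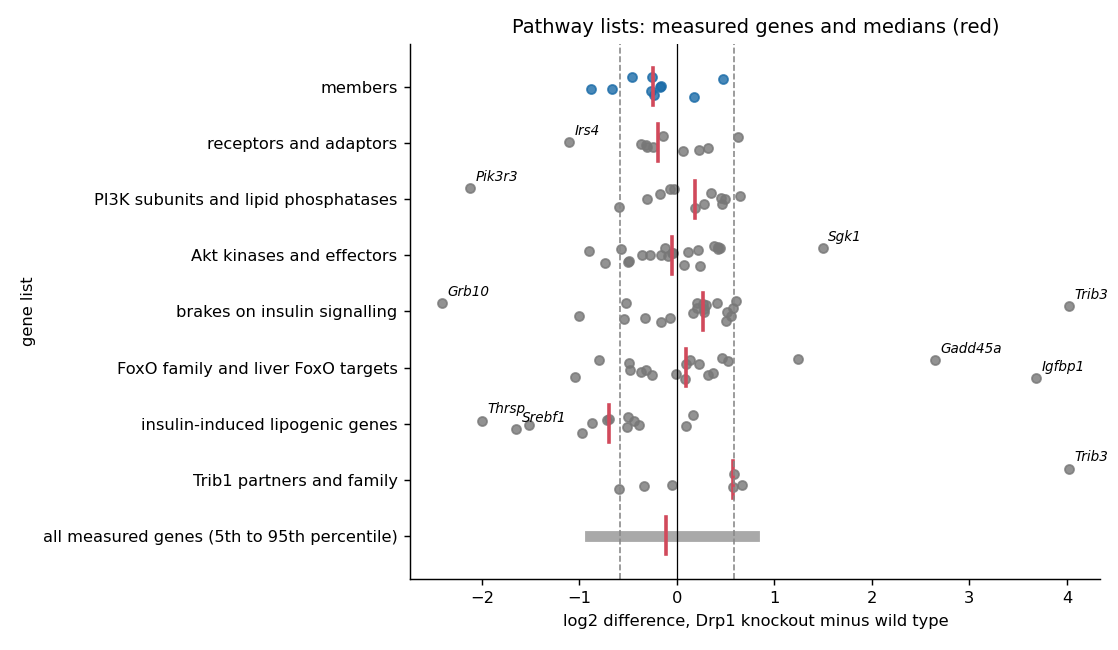
Log2 difference, Drp1 knockout minus wild type, of each measured gene in the members and the 7 pathway lists, with medians in red, dashed lines at 1.5-fold and the 5th to 95th percentile of all measured genes as a bar. Lipogenic genes have the lowest median (-0.70), and Trib3 and Igfbp1 lie farthest right. Spike-in scaling would move all points up by 0.78.

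The hepatocyte markers Alb, Ttr, Apoa1, Apob, Cps1 and Tat were all measured, with a summed level of 1080 in the knockout and 1480 in the wild type. Adipoq, Lep, Plin1 and Retn, markers of fat cells, were not well above background on either array. In whole liver, fewer cells of a type and less RNA per cell cannot be told apart. Hepatocyte markers had a median of -0.34, with 2 of 6 higher and 1 lower, and macrophage markers were higher in 3 of 6 (summed level 56.2 in the knockout and 49.2 in the wild type). All 7 skeletal muscle markers passed the background threshold only in the wild type (summed level 0.112 in the knockout and 8.26 in the wild type). The part of these hepatocyte, macrophage and muscle differences in the values of Pik3r1 and Foxo1 was not tested. The targeted gene, Dnm1l, read 1.75 in the knockout and 2.03 in the wild type on 1 probe at base 3993. The deleted part is not stated, so this probe does not check the label.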

How the data were processed

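Cy3-labelled liver RNA was hybridised to Agilent mouse arrays, 1 per group. The deposited spot intensities were background-subtracted and detrended by Feature Extraction, version 10.7.1.1 per the file headers and 9.5.1.1 per the submitters' processing notes. The authors' deposited value table holds linear intensities whose columns share a median of 45.9. Once sorted, its columns differ by at most 0.042%, as quantile normalization leaves them. The deposited table and quantile normalization are therefore not separate checks below or above.

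Of 43020 gene spots per array, flagged ones (190 knockout, 183 wild type) were left out, and 0 were saturated. The log2 signal minus the array's 75th percentile was averaged over a probe's spots. A probe was measured if at least 50% of its spots were well above background on both arrays (22521 knockout, 19923 wild type). The lowest such log2 level was -4.76 in the knockout and -4.08 in the wild type, and the number of arrays limits precision. All 20 member probes kept their symbol when matched by accession.

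Where 1 array alone was well above background, "at least N-fold" compares it with the lowest level well above background on the dim array. Where the dim probe itself read higher than that, as for Pik3r5 and Ccng2, the fold is against that reading and is not a lower bound. For a gene with several probes, the probe with the greatest bound was taken.

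No test was possible, and with 2 arrays no gene could be ranked by likeness of pattern. Members and lists were chosen with earlier results of these data known. Named genes are the members, Dnm1l and up to 5 measured genes per list by size, and some genes that this rule names are not reported here. Alternatives were quantile, median, loess (span 0.3) and E1A spike-in scaling, normexp (offset 50), no filter, a filter at the 25th percentile, the brightest probe and the deposited table. Python 3.11.15, pandas 2.3.3, statsmodels 0.14.6 and limma 3.58.1 were used.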

Additional observations from a re-analysis of the deposited data

How the results depend on the processing

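All alternatives were planned, except counting the overlapping Akt2 probes once, which was added after seeing the data. Scaling to spike-in spots, of which the 9 E1A probes ranged from -1.61 to -0.09 before scaling, raised every difference by 0.78. It gave 4 members higher and 0 lower and a member median of 0.53, with 8946 genes higher and 209 lower over the array. List medians became 0.58 for receptors and adaptors, 0.96 for PI3K subunits and phosphatases, 0.72 for Akt kinases and effectors, 1.05 for brakes, 0.88 for FoxO genes, 0.0833 for lipogenic genes and 1.35 for Trib1 partners. Higher genes then numbered 5 of 10, 10 of 13, 14 of 21, 16 of 21, 12 of 19, 2 of 13 and 5 of 7 in these lists in the same order. Foxo1 (0.11), Tbc1d4 (0.0380) and Cebpa (0.18) were among those that changed sign, because the shift exceeded their size. The median of all genes moved by 0.11 with centring, 0.11 with loess and -0.20 without a filter. Lower members numbered 1 under quantile, centring, loess and the deposited table, where Foxo1 fell short of 1.5-fold, and centring put 1 member, Pik3ca, higher. The member median otherwise stayed between -0.26 and -0.14. Normexp gave 658 genes higher, and medians of -0.00164 for PI3K genes, 0.0606 for brakes and 0.0181 for Trib1 partners. No filter gave 3164 higher and 11307 lower among 30152 genes, and -0.0539 for Trib1 partners. The stricter filter gave 655 higher and 1269 lower among 11488 genes, with -0.0311 for PI3K, -0.50 for lipogenic and 0.26 for Trib1 genes, and it left Irs4, Pik3r3, Tbc1d4, Grb10, Trib2, Gadd45a, Srebf1 and Fasn unmeasured. The brightest probe gave 0.37 for Trib1 genes. The lipogenic median was -0.53 with quantile, -0.51 with loess and -0.52 with the deposited table. Apart from the uniform spike-in shift, the cause was not tested. Signal over background limits dim genes most: normexp put Igf1r at 0.14, Irs4 at -0.83, Pik3r3 at -1.45 and Grb10 at -1.30. No paired analysis was possible because each group holds 1 array.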

Other observations

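Some pathway genes passed the background threshold on 1 array alone and enter no count above. Of the 119 genes in the lists, 10 did so only in the knockout and 0 only in the wild type. Over all genes, 2174 did so only in the knockout and 387 only in the wild type. Pik3c2b, a class II PI3K, was higher in the knockout by at least 2.37-fold on the probe with the greatest bound of its 3. Gab1, an adaptor of receptor kinases, was at least 1.46-fold higher. Pik3r5, a regulatory subunit of the gamma form, was 2.04-fold higher and the FoxO target Ccng2 1.52-fold. These 2 folds are against wild type readings that were not well above background, so they are not lower bounds. These 4 genes were chosen after their values were seen.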
